A study of Rattus norvegicus with 22 samples.

Results

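RefSeq gives curated transcripts that do not code for protein an accession beginning NR_, and the arrays of the series carried 28 probes for 27 such accessions. With H19 left out and the brightest probe kept where an accession had several, 26 transcripts remained of 26959 on the array. RefSeq's gene table for assembly GRCr8 gave symbols for 23 of them, and NR_002706, NR_027235 and NR_027366 keep their accessions here. By name and annotation 3 are hosts of small nucleolar RNAs or small RNAs (Gas5, Terc and Rpph1), 1 is antisense (Abhd11-as1), 7 are transcribed pseudogenes, 12 are other named noncoding RNAs and 3 are uncharacterized. The chromosomes of the 23 named transcripts include chromosome 20 for 6 and the X chromosome for 1.

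The 22 one-colour arrays measured RNA of germ cells from male rats gavaged with cyclophosphamide, an alkylating anticancer drug, or with saline. The groups were round spermatids of rats given cyclophosphamide (CPA) at 6 mg/kg on 6 days per week for 4 weeks (n = 6), round spermatids of rats given saline on the same schedule (n = 6), pachytene spermatocytes of CPA rats (n = 5) and pachytene spermatocytes of saline rats (n = 5). Of the pachytene samples of CPA rats, 2 carry the rat number 16 with different years, and whether they are 1 animal is not given. The series asks how chronic CPA changes gene expression in these cells. Strain, age and the purity of the fractions, which were sedimented at unit gravity, are not given in the labels used here. All values below are log2 levels of the processed signal relative to the array's 75th percentile, so a level of 0 is the brightness that 75% of probes on that array do not exceed. Levels of different probes are not comparable in amount.

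Pachytene spermatocytes are in the long prophase of meiosis, and round spermatids are the haploid cells that follow the meiotic divisions. Noncoding RNAs have no common mechanism: some carry small nucleolar RNAs in their introns, some are working parts of enzymes such as telomerase and ribonuclease P, and transcribed pseudogenes are copies of coding genes that lost their reading frame. Male germ cells are known for transcribing an unusually large part of the genome, noncoding and pseudogene copies included.

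The 75th percentile was 1069 to 2423 intensity units per array, no spot was saturated, and arrays of 1 group correlated at 0.981 to 0.991 over transcripts. Slides 1 and 2 each held both cell types, with 1 pachytene array per treatment against 3 round spermatid arrays per treatment, while slides 3 and 4 held pachytene arrays alone. Round spermatid markers were higher in saline round spermatids for 12 of 12 genes and pachytene markers lower for 9 of 11 (limma adjusted p under 0.05). Markers of other testis cells differed too. Macrophage markers were higher in round spermatids for 8 of 8, with mean log2 levels over the list of -1.04 to -0.46 in CPA and -1.43 to 0.11 in saline round spermatids, against -4.30 to -3.05 in CPA and -3.51 to -2.95 in saline pachytene spermatocytes. Sertoli markers were lower for 7 of 9 and higher for 1, at -3.82 to -3.01 in CPA and -3.61 to -2.86 in saline round spermatids, against -1.84 to -1.20 in CPA and -1.74 to -1.20 in saline pachytene spermatocytes. Leydig markers were lower for 5 of 5 and myoid markers higher for 4 of 4. Of 8 macrophage and 9 Sertoli markers, 0 were below background on every array of a group. The part of these cells in the differences below was not tested, and in such bulk fractions fewer cells of a type and less RNA per cell cannot be told apart.

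The first question was which of the transcripts the arrays saw. In CPA round spermatids 13 of the 26 were well above background on every array, 4 on some arrays and 9 on none. Saline round spermatids had 14, 3 and 9, CPA pachytene spermatocytes 14, 2 and 10, and saline pachytene spermatocytes 14, 4 and 8. Over all 22 arrays 13 transcripts (50%) were well above background on every array and 7 (26.9%) on none, against 59.8% and 17.3% of all 26959 transcripts. Among coding transcripts with accessions beginning NM_ the shares were 61.6% and 17.6%. Whether the noncoding transcripts differ from the rest in this was not tested.

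**Figure D1:**
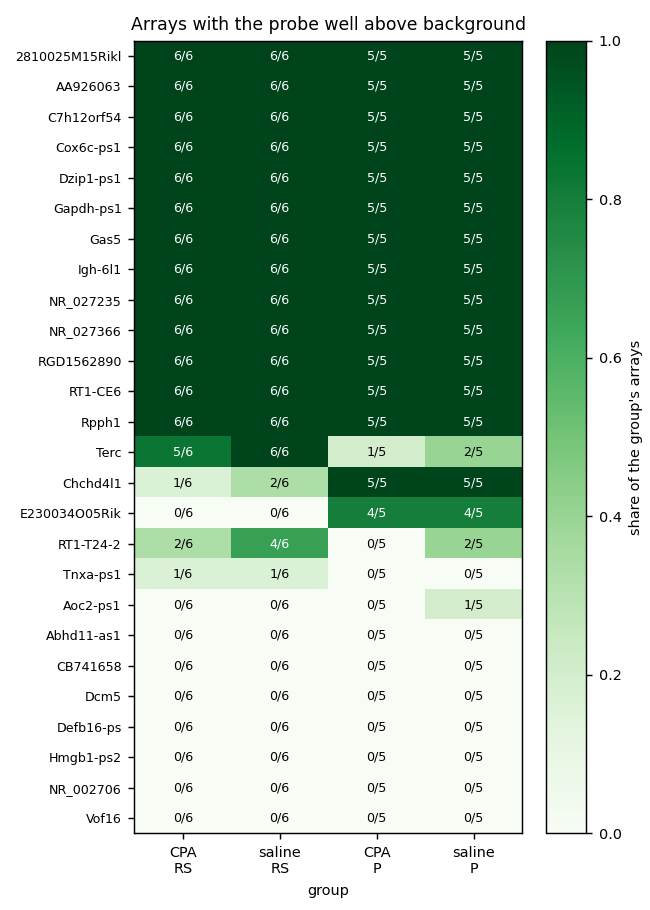
Number of arrays of each group on which the probe of each of the 26 noncoding transcripts was well above background, with colour showing the share of the group's arrays. The top 13 rows were above background on all 22 arrays and the bottom 7 on none, and the 6 rows between them changed with the cell type or with single arrays.

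The 7 transcripts seen on no array were CB741658, NR_002706, Defb16-ps, Hmgb1-ps2, Abhd11-as1, Dcm5 and Vof16. RT1-T24-2, a transcript of the histocompatibility region, was seen on 8 arrays: 2 of 6 CPA and 4 of 6 saline round spermatid arrays, and 0 of 5 CPA and 2 of 5 saline pachytene arrays. Tnxa-ps1, a copy of part of the tenascin X gene, was seen on 1 of 6 arrays in each round spermatid group and on none of the 10 pachytene arrays. Measured means of Tnxa-ps1 were -5.89 ± 0.35 in CPA and -6.24 ± 0.65 in saline round spermatids, against -7.86 ± 0.25 in CPA and -8.19 ± 0.15 in saline pachytene spermatocytes. With nearly all of these arrays not well above background, no fold is given. Aoc2-ps1, a copy named after a copper amine oxidase, was seen on 1 saline pachytene array. These 10 transcripts were too dim to be tested, and 16 were tested between the cell types.

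Round spermatids and pachytene spermatocytes differed in most of the 16. In CPA rats 5 were higher and 9 lower in round spermatids at a limma adjusted p under 0.05, so that 87.5% passed, beside 79.2% of all 19384 transcripts tested (38.8% higher and 40.4% lower). In saline rats 6 were higher and 9 lower, or 93.8%, beside 75.3% of 19451 (38.3% higher and 37% lower). These counts include Terc, Chchd4l1 and E230034O05Rik, which entered the test only through the cell type where they were higher. Their calls rest on values mostly or all not well above background in the other cell type. The median log2 difference of the 16 was -0.86 in CPA rats and -0.64 in saline rats, beside -0.02 and 0.01 over all transcripts. All 14 that passed in CPA rats also passed in saline rats, in the same direction. The treatments share no array here, but all arrays were fitted together, so both sets of p rest on the same estimate of spread. In both treatments some pachytene arrays lay on slides without round spermatid arrays. The share of all transcripts passing in both treatments in the same direction is not given here. The agreement therefore does not set the members apart from the rest. Levels did not overlap between the cell types for 13 of 16 in CPA rats, beside 67.1% of all transcripts, and for 10 of 16 in saline rats, beside 57.1%. On slides 1 and 2 alone, which hold both cell types, a fit with slide as a term passed 13 in CPA rats and 14 in saline rats. Fewer passed within a single slide, where each treatment has 1 pachytene array. The share of all transcripts passing in these fits is not given here, so the counts do not set the members apart from the rest.

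**Figure D2:**
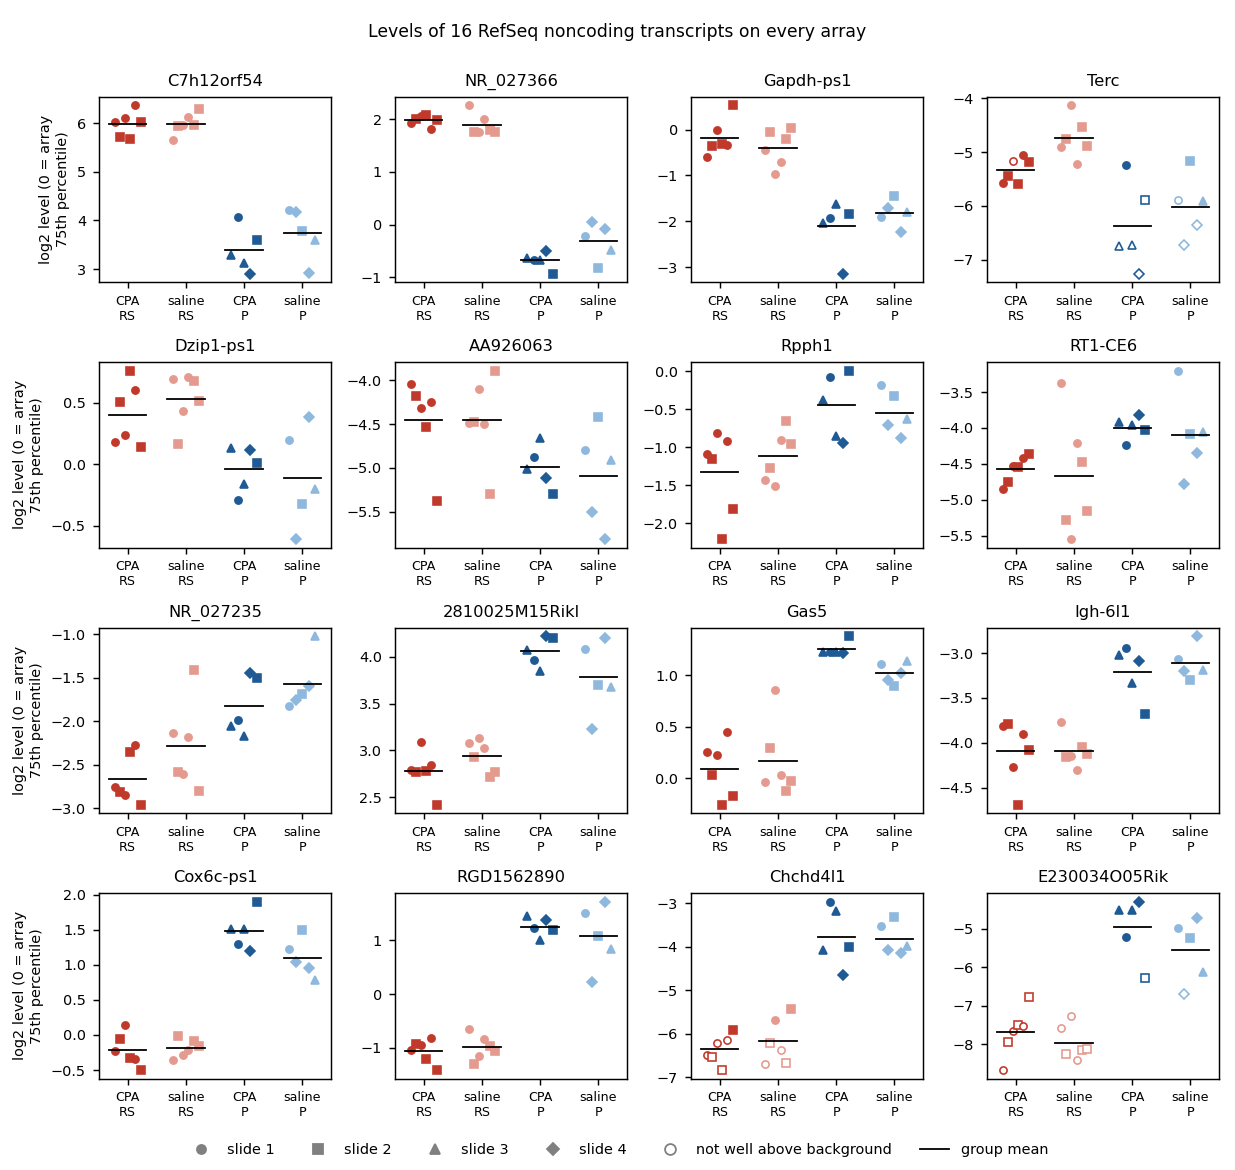
Log2 level (0 is the array's 75th percentile) of the 16 tested noncoding transcripts on every array, by group, with marker shape for the slide, open markers for probes not well above background and a line for the group mean. Transcripts run in order of the saline difference between cell types, C7h12orf54 at 2.25 first and E230034O05Rik at -2.43 last.

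**Figure D3:**
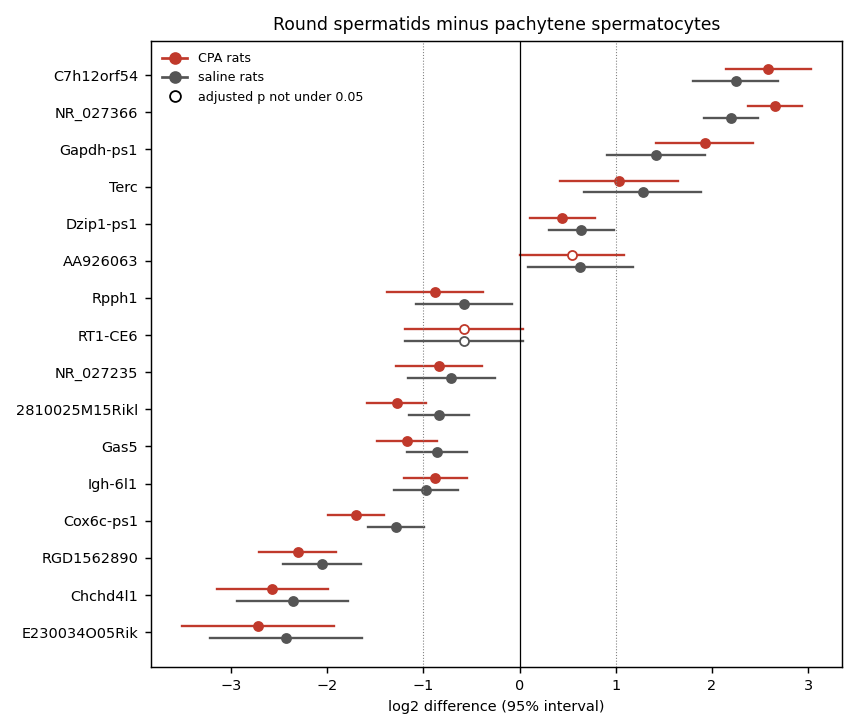
Log2 difference, round spermatids minus pachytene spermatocytes, of the 16 tested noncoding transcripts in CPA and in saline rats, with 95% intervals from limma, open points for an adjusted p not under 0.05 and dotted lines at 2-fold. Each transcript lies on the same side of 0 in both treatments, and only RT1-CE6 in both and AA926063 in CPA rats are open.

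Gas5 is the host of box C/D small nucleolar RNAs, which guide methylation of ribosomal RNA from within its introns, and its spliced remainder is a known substrate of nonsense-mediated decay. Gas5 lay between -0.26 and 0.45 (median 0.13) in the round spermatids of CPA rats, against 1.23, 1.22, 1.23, 1.22 and 1.38 in their pachytene spermatocytes. After saline, Gas5 lay between -0.12 and 0.86 (median 0.003) in round spermatids, against 1.11, 0.95, 0.90, 1.03 and 1.14 in pachytene spermatocytes. Every pachytene array of either treatment was above every round spermatid array. Gas5 was 2.25-fold lower in round spermatids of CPA rats (log2 difference -1.17 ± 0.15, limma adjusted p = 2.78e-07) and 1.81-fold lower in round spermatids of saline rats (log2 difference -0.86 ± 0.15, limma adjusted p = 2.38e-05). Within slide 1 the saline difference was -0.83 with an adjusted p of 0.145. The Gas5 probe was printed in 10 spots, and the spread between spots on 1 array was small, with a median SD of 0.05.

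The start of Gas5 is shown because it holds the densest set of promoter letters among the 11 members with a promoter in RefSeq's table for GRCr8, each running 250 bases before to 50 bases after the annotated start. Capitals mark matches on either strand to TGACGTCA, the palindrome of the cyclic AMP response element, to GGGCGG, the core of the GC box, to CCAAT and to TATAAA. The window is chr13:75836713-75837012 (+ strand).
Gas5: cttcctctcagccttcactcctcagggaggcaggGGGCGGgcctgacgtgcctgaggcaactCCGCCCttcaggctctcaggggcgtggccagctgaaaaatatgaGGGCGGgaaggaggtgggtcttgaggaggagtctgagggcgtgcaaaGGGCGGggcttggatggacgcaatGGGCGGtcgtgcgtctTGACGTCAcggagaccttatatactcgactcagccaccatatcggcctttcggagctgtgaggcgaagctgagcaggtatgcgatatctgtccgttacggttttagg
TGACGTCA begins 57 bases before the start and occurs in 1.83% of all 33469 promoters of the table. GGGCGG occurs 5 times here and at least once in 33.1% of promoters. A match is a description of letters, not of binding.

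Terc is the RNA template of telomerase and lacks a poly(A) tail, while the labelling kit used here primes on poly(A) tails. Terc lay between -5.59 and -5.05 (median -5.32) in the round spermatids of CPA rats, against -6.74, -5.25, -6.73, -7.26 and -5.88 in their pachytene spermatocytes. After saline, Terc lay between -5.23 and -4.13 (median -4.82) in round spermatids, against -5.90, -6.74, -5.17, -6.36 and -5.91 in pachytene spermatocytes. A single pachytene array of each treatment, CPA replicate 15 and saline replicate 25, reached into that treatment's round spermatid range, and the others lay below it. Terc was well above background on 5 of 6 CPA and 6 of 6 saline round spermatid arrays, against 1 of 5 CPA and 2 of 5 saline pachytene arrays. Terc was 2.05-fold higher in round spermatids of CPA rats (log2 difference 1.04 ± 0.29, limma adjusted p = 0.00287) and 2.43-fold higher in round spermatids of saline rats (log2 difference 1.28 ± 0.29, limma adjusted p = 0.000472). It entered the test through its round spermatid arrays, and the fold rests on pachytene values that were mostly not well above background. With normexp background correction the difference was 0.05 (adjusted p = 0.769) in CPA rats and 0.32 in saline rats. That correction adds 50 intensity units to each value, which by itself draws differences between dim values toward 0. On slides 1 and 2 the pachytene level was -5.88 to -5.25 in CPA and -5.90 to -5.17 in saline rats. On slides 3 and 4 it was -7.26 to -6.73 in CPA and -6.74 to -5.91 in saline rats. The saline ranges nearly touch, most of these values were not well above background, and a part of the slide in them was not tested. Within slide 1 the CPA difference was -0.02, and on slides 1 and 2 with slide as a term it was 0.23 (adjusted p = 0.451) in CPA rats and 0.80 (adjusted p = 0.0159) in saline rats.

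Rpph1 names the RNA subunit of ribonuclease P, which trims transfer RNA precursors, though RefSeq lists Rmrp as a synonym and types the gene as the RNA of ribonuclease MRP, so which of the RNAs the probe reads is not settled here. How far the labelling kit, which primes on poly(A) tails, takes up either RNA was not tested. Rpph1 lay between -2.21 and -0.82 (median -1.12) in the round spermatids of CPA rats, against -0.37, -0.07, -0.85, -0.95 and 0.01 in their pachytene spermatocytes. After saline, Rpph1 lay between -1.51 and -0.65 (median -1.11) in round spermatids, against -0.18, -0.71, -0.32, -0.87 and -0.63 in pachytene spermatocytes. The cell types overlapped in both treatments. Rpph1 was 1.85-fold lower in round spermatids of CPA rats (log2 difference -0.88 ± 0.24, limma adjusted p = 0.00203) and 1.49-fold lower in round spermatids of saline rats (log2 difference -0.58 ± 0.24, limma adjusted p = 0.0346). The saline call was lost without saline pachytene replicate 13 or 25 or saline round spermatid replicate 15, 16 or 17, where the difference was -0.49 to -0.55 and the adjusted p 0.0595 to 0.0927, and within slide 2 (-0.63, adjusted p = 0.123), where the CPA difference was -1.73.

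C7h12orf54, an open reading frame symbol now listed as a long noncoding RNA, had a large difference toward round spermatids. C7h12orf54 lay between 5.68 and 6.37 (median 6.02) in the round spermatids of CPA rats, against 3.29, 4.06, 3.12, 2.91 and 3.60 in their pachytene spermatocytes. After saline, C7h12orf54 lay between 5.65 and 6.29 (median 5.96) in round spermatids, against 4.21, 4.17, 3.78, 2.93 and 3.61 in pachytene spermatocytes. No array of one cell type reached the other in either treatment. C7h12orf54 was 6.01-fold higher in round spermatids of CPA rats (log2 difference 2.59 ± 0.21, limma adjusted p = 1.72e-10) and 4.75-fold higher in round spermatids of saline rats (log2 difference 2.25 ± 0.21, limma adjusted p = 2.44e-09). Its start, chr7:131408609-131408908 (+ strand), is shown as the only one of the higher transcripts with a promoter in the table.
C7h12orf54: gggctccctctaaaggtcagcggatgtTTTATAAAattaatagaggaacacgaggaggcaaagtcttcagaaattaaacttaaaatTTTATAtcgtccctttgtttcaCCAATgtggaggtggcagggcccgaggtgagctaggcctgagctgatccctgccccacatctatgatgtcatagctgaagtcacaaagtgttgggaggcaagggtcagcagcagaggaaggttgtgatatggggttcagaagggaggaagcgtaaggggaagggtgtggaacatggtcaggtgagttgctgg
It holds TATAAA 3 times, of which 2 overlap on opposite strands in the run TTTATAAA, and CCAAT once, 142 bases before the start. TATAAA occurs in 14.2% of all promoters and CCAAT in 37.5%. The nearest TATAAA begins 164 bases before the start, and GGGCGG and TGACGTCA are not among these letters.

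NR_027366 has no symbol in the table, and its difference was as large. NR_027366 lay between 1.82 and 2.08 (median 1.999) in the round spermatids of CPA rats, against -0.63, -0.67, -0.66, -0.50 and -0.93 in their pachytene spermatocytes. After saline, NR_027366 lay between 1.75 and 2.27 (median 1.78) in round spermatids, against -0.21, 0.04, -0.82, -0.07 and -0.47 in pachytene spermatocytes. The round spermatid levels were tight, and every one was above every pachytene level. NR_027366 was 6.31-fold higher in round spermatids of CPA rats (log2 difference 2.66 ± 0.14, limma adjusted p = 1.12e-13) and 4.59-fold higher in round spermatids of saline rats (log2 difference 2.20 ± 0.14, limma adjusted p = 4.12e-12). NR_027235, also without a symbol, went the other way. NR_027235 lay between -2.96 and -2.27 (median -2.78) in the round spermatids of CPA rats, against -2.05, -1.98, -2.17, -1.44 and -1.499 in their pachytene spermatocytes. After saline, NR_027235 lay between -2.80 and -1.41 (median -2.38) in round spermatids, against -1.82, -1.76, -1.69, -1.59 and -1.02 in pachytene spermatocytes. The saline groups overlapped through 1 high round spermatid array, replicate 28. NR_027235 was 1.79-fold lower in round spermatids of CPA rats (log2 difference -0.84 ± 0.22, limma adjusted p = 0.00129) and 1.63-fold lower in round spermatids of saline rats (log2 difference -0.71 ± 0.22, limma adjusted p = 0.00534). On slides 1 and 2 with slide as a term the saline difference of NR_027235 was -0.53 (adjusted p = 0.125), and within slide 1 the CPA difference was -0.64 (adjusted p = 0.0991).

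Among the 7 pseudogenes 3 were bright enough to test, and 2 were higher and 1 lower in round spermatids in either treatment, with a median log2 difference of 0.44 in CPA rats and 0.64 in saline rats, beside 79.2% and 75.3% of all transcripts that passed. Gapdh-ps1 is a copy of the glycolytic gene Gapdh. Gapdh-ps1 lay between -0.60 and 0.54 (median -0.33) in the round spermatids of CPA rats, against -2.03, -1.92, -1.62, -3.14 and -1.83 in their pachytene spermatocytes. After saline, Gapdh-ps1 lay between -0.97 and 0.03 (median -0.33) in round spermatids, against -1.90, -1.70, -1.44, -2.22 and -1.80 in pachytene spermatocytes. The cell types did not overlap, and the CPA pachytene array on slide 4 was the lowest. Gapdh-ps1 was 3.80-fold higher in round spermatids of CPA rats (log2 difference 1.92 ± 0.24, limma adjusted p = 2.08e-07) and 2.68-fold higher in round spermatids of saline rats (log2 difference 1.42 ± 0.24, limma adjusted p = 1.73e-05). Gapdh itself differed by -0.20 ± 0.12 in CPA rats and -0.25 ± 0.12 in saline rats, which did not pass (adjusted p = 0.11 and 0.0505), while Gapdhs, the sperm-specific enzyme, was higher in round spermatids by 3.29 ± 0.20 and 2.64 ± 0.20. Rat chromosomes hold many near-identical Gapdh copies, and how far the Gapdh-ps1 probe reads its relatives was not tested.

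Cox6c-ps1 is a copy of Cox6c, a subunit of cytochrome c oxidase in the respiratory chain. Cox6c-ps1 lay between -0.50 and 0.15 (median -0.27) in the round spermatids of CPA rats, against 1.51, 1.29, 1.52, 1.19 and 1.90 in their pachytene spermatocytes. After saline, Cox6c-ps1 lay between -0.36 and -0.02 (median -0.18) in round spermatids, against 1.22, 1.04, 1.502, 0.96 and 0.78 in pachytene spermatocytes. Pachytene arrays were all higher than round spermatid arrays. Cox6c-ps1 was 3.25-fold lower in round spermatids of CPA rats (log2 difference -1.70 ± 0.14, limma adjusted p = 2.14e-10) and 2.44-fold lower in round spermatids of saline rats (log2 difference -1.29 ± 0.14, limma adjusted p = 2.74e-08). Cox6c was lower too, by -1.40 ± 0.14 in CPA rats and -1.19 ± 0.14 in saline rats, and how far the probes read each other's transcript was not tested. A dimmer second probe for Cox6c-ps1 was well above background on 0 of 6 arrays in each round spermatid group, against 2 of 5 in CPA and 2 of 5 in saline pachytene spermatocytes. Its means were -7.75 ± 0.80 in CPA and -7.76 ± 0.59 in saline round spermatids, against -5.62 ± 0.74 in CPA and -6.19 ± 0.94 in saline pachytene spermatocytes.

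Dzip1-ps1 is a copy of Dzip1, which encodes a zinc finger protein of the centriole and cilium base. Dzip1-ps1 lay between 0.14 and 0.76 (median 0.37) in the round spermatids of CPA rats, against 0.13, -0.29, -0.16, 0.12 and 0.01 in their pachytene spermatocytes. After saline, Dzip1-ps1 lay between 0.17 and 0.71 (median 0.60) in round spermatids, against 0.20, -0.61, -0.32, 0.39 and -0.20 in pachytene spermatocytes. The CPA groups were parted by a narrow gap, and the saline groups overlapped. Dzip1-ps1 was 1.36-fold higher in round spermatids of CPA rats (log2 difference 0.44 ± 0.16, limma adjusted p = 0.0171) and 1.56-fold higher in round spermatids of saline rats (log2 difference 0.64 ± 0.16, limma adjusted p = 0.0012). Within single slides the difference was 0.41 to 0.78 and did not pass in either treatment, and without CPA pachytene replicate 15 the CPA difference was 0.38 (adjusted p = 0.0521).

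Of the 12 other named noncoding RNAs 8 were tested, and in round spermatids 1 was higher and 5 lower in CPA rats (median log2 difference -1.08), and 2 were higher and 5 lower in saline rats (median -0.91), beside 38.8% higher and 40.4% lower of all transcripts in CPA rats and 38.3% and 37% in saline rats. E230034O05Rik, named after a mouse complementary DNA clone and lying in the histocompatibility region, was seen in 1 cell type alone, on 0 of 12 round spermatid arrays, against 4 of 5 CPA and 4 of 5 saline pachytene arrays. E230034O05Rik lay between -8.67 and -6.78 (median -7.59) in the round spermatids of CPA rats, against -4.50, -5.21, -4.50, -4.29 and -6.28 in their pachytene spermatocytes. After saline, E230034O05Rik lay between -8.42 and -7.27 (median -8.14) in round spermatids, against -4.97, -6.68, -5.23, -4.71 and -6.11 in pachytene spermatocytes. The dim pachytene arrays, CPA replicate 29 and saline replicate 16, were still above all round spermatid arrays. The lowest signal well above background on each array was put in place of the dim round spermatid values. E230034O05Rik was then 2.34-fold lower in round spermatids of CPA rats and 1.63-fold lower in those of saline rats. Probes not well above background can lie above that signal, so these folds are not strict lower bounds, and they were not tested. The measured differences had a limma adjusted p of 8.61e-07 in CPA and 5.01e-06 in saline rats. They rest on round spermatid values not well above background, and E230034O05Rik entered the test through its pachytene arrays. Within slide 2 the CPA difference was -1.12. With normexp background correction, whose added 50 intensity units draw dim values together, it was -0.93 in CPA rats and -0.65 in saline rats.

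Chchd4l1, the X-linked transcript, is named for its likeness to Chchd4, the import receptor of the mitochondrial intermembrane space. It was well above background on 1 of 6 CPA and 2 of 6 saline round spermatid arrays, against all 10 pachytene arrays. The sex chromosomes are known to be largely silent in pachytene spermatocytes. Chchd4l1 lay between -6.83 and -5.91 (median -6.35) in the round spermatids of CPA rats, against -4.08, -2.97, -3.18, -4.64 and -4.01 in their pachytene spermatocytes. After saline, Chchd4l1 lay between -6.69 and -5.43 (median -6.28) in round spermatids, against -3.53, -4.07, -3.32, -4.15 and -3.99 in pachytene spermatocytes. The cell types lay far apart in both treatments. Chchd4l1 was 5.95-fold lower in round spermatids of CPA rats (log2 difference -2.57 ± 0.28, limma adjusted p = 1.59e-08) and 5.14-fold lower in round spermatids of saline rats (log2 difference -2.36 ± 0.28, limma adjusted p = 7.8e-08). It entered the test through its pachytene arrays, most round spermatid values being not well above background, so the fold rests on those dim values. With normexp background correction, whose added 50 intensity units draw dim values together, the difference was -1.24 in CPA rats and -1.09 in saline rats. Within slide 1 the difference was -3.31 in CPA rats. Chchd4 itself went the opposite way, higher in round spermatids by 1.56 ± 0.13 in CPA rats and 1.31 ± 0.13 in saline rats.

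RGD1562890, known by its database number alone, was well above background on all 22 arrays. RGD1562890 lay between -1.41 and -0.82 (median -0.995) in the round spermatids of CPA rats, against 1.45, 1.23, 1.01, 1.36 and 1.19 in their pachytene spermatocytes. After saline, RGD1562890 lay between -1.30 and -0.64 (median -1.01) in round spermatids, against 1.499, 0.22, 1.08, 1.71 and 0.83 in pachytene spermatocytes. Saline pachytene replicate 16 was low and still above every round spermatid array. RGD1562890 was 4.96-fold lower in round spermatids of CPA rats (log2 difference -2.31 ± 0.19, limma adjusted p = 2.5e-10) and 4.16-fold lower in round spermatids of saline rats (log2 difference -2.06 ± 0.19, limma adjusted p = 2.34e-09). 2810025M15Rikl, like its namesake a transcript with no settled role, had the same order. 2810025M15Rikl lay between 2.42 and 3.09 (median 2.79) in the round spermatids of CPA rats, against 4.07, 3.96, 3.85, 4.22 and 4.20 in their pachytene spermatocytes. Saline 2810025M15Rikl levels were between 2.72 and 3.13 (median 2.98) in round spermatids, against 4.09, 3.23, 3.70, 4.20 and 3.68 in pachytene spermatocytes. No round spermatid array reached a pachytene array. 2810025M15Rikl was 2.42-fold lower in round spermatids of CPA rats (log2 difference -1.28 ± 0.15, limma adjusted p = 5.18e-08) and 1.79-fold lower in round spermatids of saline rats (log2 difference -0.84 ± 0.15, limma adjusted p = 2.53e-05).

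The starts of the lower transcripts are shown for comparison with that of Gas5, with the same letters in capitals. They lie at chr13:72102797-72103096 (+ strand) for 2810025M15Rikl, at chrX:62690140-62690439 (+ strand) for Chchd4l1 and at chr20:3663085-3663384 (- strand) for E230034O05Rik.
2810025M15Rikl: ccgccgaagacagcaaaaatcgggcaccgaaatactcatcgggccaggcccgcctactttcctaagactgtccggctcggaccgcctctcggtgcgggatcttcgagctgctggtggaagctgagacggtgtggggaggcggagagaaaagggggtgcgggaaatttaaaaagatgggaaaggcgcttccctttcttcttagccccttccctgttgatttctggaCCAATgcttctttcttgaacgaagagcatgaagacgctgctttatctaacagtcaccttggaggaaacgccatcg
Chchd4l1: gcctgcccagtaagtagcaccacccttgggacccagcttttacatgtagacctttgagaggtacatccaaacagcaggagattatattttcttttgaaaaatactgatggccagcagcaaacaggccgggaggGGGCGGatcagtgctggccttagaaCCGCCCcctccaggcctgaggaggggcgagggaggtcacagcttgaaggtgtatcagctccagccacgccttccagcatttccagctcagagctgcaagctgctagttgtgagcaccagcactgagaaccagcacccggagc
E230034O05Rik: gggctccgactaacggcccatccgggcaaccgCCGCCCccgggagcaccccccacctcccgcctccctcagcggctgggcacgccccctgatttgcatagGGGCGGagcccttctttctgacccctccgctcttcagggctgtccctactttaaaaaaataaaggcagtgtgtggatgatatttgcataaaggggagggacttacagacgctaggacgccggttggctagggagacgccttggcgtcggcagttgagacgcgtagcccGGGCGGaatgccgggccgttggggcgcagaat
GGGCGG occurs 2 times at Chchd4l1, 3 times at E230034O05Rik and 0 times at 2810025M15Rikl, where CCAAT begins 25 bases before the start. None of these 3 windows holds TATAAA or TGACGTCA. G and C make up 54.7%, 56.0% and 63.7% of these windows and 60.3% at Gas5, against 49.0% at C7h12orf54 and a median of 51.7% over all promoters.

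Igh-6l1, named for likeness to an immunoglobulin heavy chain gene, was lower in round spermatids. Igh-6l1 lay between -4.69 and -3.79 (median -3.99) in the round spermatids of CPA rats, against -3.02, -2.94, -3.34, -3.09 and -3.68 in their pachytene spermatocytes. After saline, Igh-6l1 lay between -4.30 and -3.77 (median -4.13) in round spermatids, against -3.07, -3.20, -3.30, -2.81 and -3.19 in pachytene spermatocytes. The cell types were apart in each treatment. Igh-6l1 was 1.84-fold lower in round spermatids of CPA rats (log2 difference -0.88 ± 0.16, limma adjusted p = 3.08e-05) and 1.97-fold lower in round spermatids of saline rats (log2 difference -0.98 ± 0.16, limma adjusted p = 8.9e-06). Within slide 2 the CPA difference of Igh-6l1 was -0.51 (adjusted p = 0.291). AA926063 and RT1-CE6, both of the histocompatibility region, had small differences. AA926063 lay between -5.38 and -4.04 (median -4.28) in the round spermatids of CPA rats, against -5.01, -4.87, -4.66, -5.12 and -5.30 in their pachytene spermatocytes. After saline, AA926063 lay between -5.30 and -3.89 (median -4.48) in round spermatids, against -4.79, -5.50, -4.42, -5.82 and -4.91 in pachytene spermatocytes. These ranges overlapped, with CPA round spermatid replicate 27 below all CPA pachytene arrays. AA926063 was 1.46-fold higher in round spermatids of CPA rats (log2 difference 0.55 ± 0.26, limma adjusted p = 0.0624) and 1.55-fold higher in round spermatids of saline rats (log2 difference 0.63 ± 0.26, limma adjusted p = 0.0348). Only the saline call passed, and it was lost in 10 of 21 other settings, with a reversed sign within slide 2 (-0.14).

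RT1-CE6 belongs to a run of class I genes that present peptides to T cells. RT1-CE6 lay between -4.85 and -4.37 (median -4.53) in the round spermatids of CPA rats, against -3.92, -4.24, -3.96, -3.82 and -4.02 in their pachytene spermatocytes. After saline, RT1-CE6 lay between -5.55 and -3.38 (median -4.81) in round spermatids, against -3.20, -4.78, -4.09, -4.34 and -4.06 in pachytene spermatocytes. The CPA groups did not overlap. The saline round spermatids spread more widely than any other group, and replicate 15 of that group was above most pachytene arrays. RT1-CE6 was 1.495-fold lower in round spermatids of CPA rats (log2 difference -0.58 ± 0.29, limma adjusted p = 0.0763) and 1.49-fold lower in round spermatids of saline rats (log2 difference -0.58 ± 0.30, limma adjusted p = 0.0803). Neither difference passed, and without saline round spermatid replicate 15 the saline difference was -0.84 (adjusted p = 0.00425).

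Where the genes on either side, or overlapping, were tested too, each pair gives the member's difference beside that of its neighbour in saline rats. This comparison was chosen after the values were seen. It covered 22 pairs of 10 members, and in the 16 pairs in which both passed, 10 went in the same direction and 6 in opposite directions. Some members stand in several of these pairs. The same counts for neighbouring genes over the whole array are not given here, so these do not set the members apart. Near Terc, the actin-related gene Actrt3 was also higher in round spermatids (2.76 ± 0.22). Or8s10, an olfactory receptor gene beside C7h12orf54, was higher as well (2.92 ± 0.24). Rpph1 overlaps Parp2, which acts in DNA break repair and was lower by far more (-3.24 ± 0.17), and is flanked by the meiotic crossover gene Ccnb1ip1 (-2.73 ± 0.22) and the telomerase protein gene Tep1 (-1.31 ± 0.21). Both of these were lower in round spermatids. Opposite directions were seen for E230034O05Rik beside Aif1 (2.11 ± 0.22) and Bag6 (0.34 ± 0.10), while Prrc2a, which it overlaps, did not pass (0.02 ± 0.17). They were also seen for AA926063 beside Daxx (-1.15 ± 0.14) and Kifc1 (-0.71 ± 0.20), and for Igh-6l1 beside Tcea3 (0.52 ± 0.15). The last opposite pair was RGD1562890 and Dnajc5b (2.59 ± 0.19). On its other side RGD1562890 has Trim55, which was lower (-3.00 ± 0.21). Whether a probe reads an overlapping gene was not tested.

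**Figure D4:**
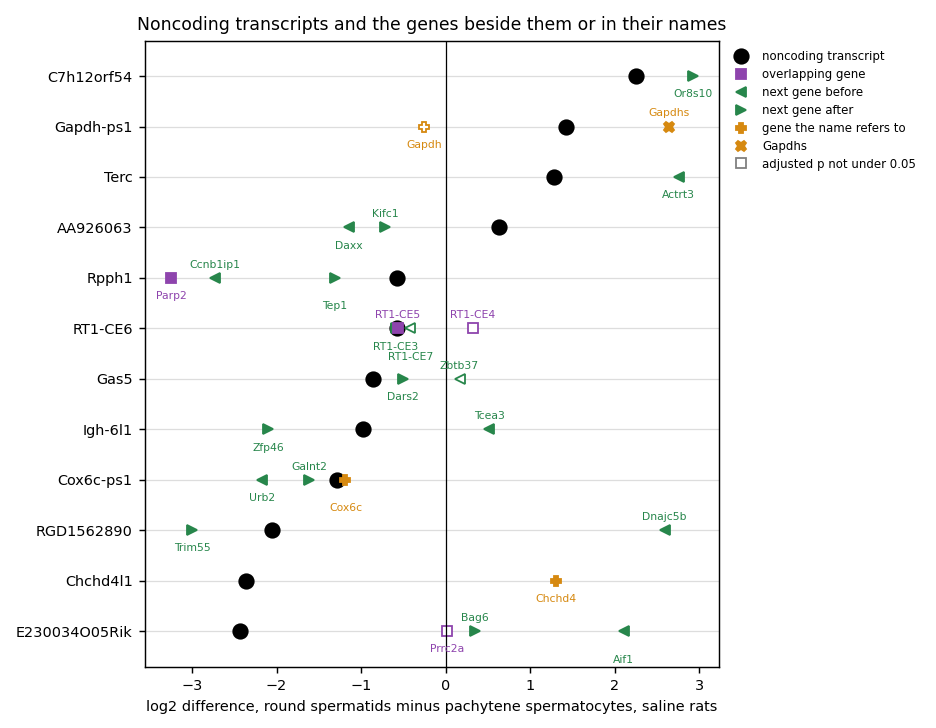
Difference on the log2 scale between saline round spermatids and saline pachytene spermatocytes of 12 noncoding transcripts (black) and of the tested genes that overlap them, lie next to them or share their name, with open markers for an adjusted p not under 0.05. Genes next to Rpph1 and Cox6c-ps1 lie on the same side of 0 as the transcript, and those next to AA926063 and Dnajc5b beside RGD1562890 lie on the other.

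Genes that make or break down noncoding RNA were set beside the members as lists, and their counts stand against 38.3% higher and 37% lower among all transcripts in saline rats. Of 9 tested genes of small nucleolar ribonucleoproteins 3 were higher and 4 lower in saline round spermatids, led by Nolc1, a chaperone of these particles, at -2.17 ± 0.14, and with the pseudouridine synthase Dkc1 at 1.001 ± 0.16. The nuclear exosome and its adaptors, which degrade unstable transcripts, had 4 higher and 4 lower of 10, with the catalytic Dis3 at 1.67 ± 0.16 and the ring subunit Exosc7 at -2.98 ± 0.18. Nonsense-mediated decay had 0 higher and 3 lower of 5, Upf3a at -2.19 ± 0.13, and microRNA processing 1 higher and 2 lower of 4. The counts in CPA rats were the same for each of these lists. With treatment, 0 genes of these lists passed in either cell type.

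The second question was whether CPA changed these transcripts. In round spermatids 0 of 14 tested passed a limma adjusted p of 0.05, beside 0% of 18891 transcripts. In pachytene spermatocytes it was 0 of 15, beside 0% of 18496. At an unadjusted p under 0.05 there was 1 of 14 in round spermatids, beside 3.33% of all, and 2 of 15 in pachytene spermatocytes, beside 7.29%. The 95% interval lay within 2-fold for 13 of 14 transcripts in round spermatids and for 14 of 15 in pachytene spermatocytes, which bounds the treatment effects without showing that they are 0. Median log2 differences were -0.05 in round spermatids and 0.09 in pachytene spermatocytes, beside -0.01 and 0.03 over all transcripts.

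**Figure D5:**
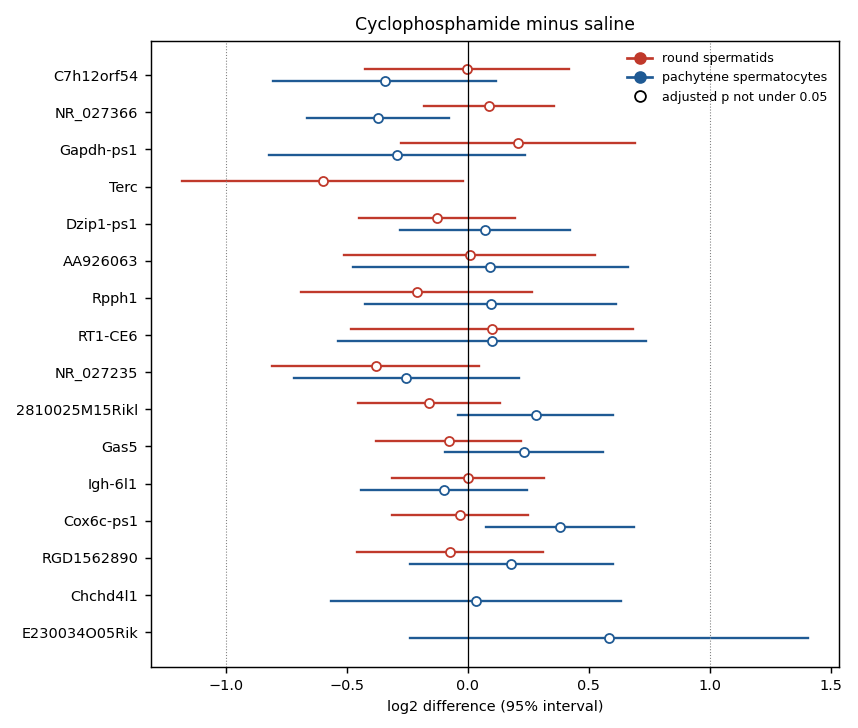
Log2 difference, cyclophosphamide minus saline, of the tested noncoding transcripts in round spermatids and in pachytene spermatocytes, with 95% intervals from limma, all points open because no adjusted p was under 0.05, and dotted lines at 2-fold. Intervals beyond 2-fold belong to Terc in round spermatids and E230034O05Rik in pachytene spermatocytes, and transcripts too dim to test were Chchd4l1 and E230034O05Rik in round spermatids and Terc in pachytene spermatocytes.

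In round spermatids the lowest p belonged to Terc, whose levels were -5.57, -5.44, -5.18, -5.59, -5.05 and -5.19 in CPA rats, against -4.90, -4.75, -4.13, -5.23, -4.53 and -4.88 in saline rats. Saline replicate 25 lay within the CPA range, and the other saline arrays lay above it. The difference was -0.60 ± 0.28 (95% interval -1.18 to -0.02) with a limma adjusted p of 0.9997. NR_027235 differed by -0.38 ± 0.21 (95% interval -0.81 to 0.05), 2810025M15Rikl by -0.16 ± 0.14 and Rpph1 by -0.21 ± 0.23. On the other side Gapdh-ps1 differed by 0.21 ± 0.23, NR_027366 by 0.09 ± 0.13, RT1-CE6 by 0.10 ± 0.28 and AA926063 by 0.01 ± 0.25, with adjusted p 0.9997 for each of the 8. Levels did not overlap between treatments for 0 of 14 transcripts, beside 0.191% of all.

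In pachytene spermatocytes NR_027366 differed by -0.37 ± 0.14 (95% interval -0.66 to -0.08) and Cox6c-ps1 by 0.38 ± 0.15 (95% interval 0.07 to 0.69), both with a limma adjusted p of 0.682. C7h12orf54 differed by -0.34 ± 0.22, Gapdh-ps1 by -0.29 ± 0.25, NR_027235 by -0.25 ± 0.23, 2810025M15Rikl by 0.28 ± 0.15 and E230034O05Rik by 0.58 ± 0.40. None of these 5 passed (adjusted p 0.697 to 0.817). Cell type markers moved with these values: in CPA pachytene spermatocytes 12 of 12 round spermatid markers were below their saline mean (median log2 difference -0.45) and 11 of 11 pachytene markers above it (median 0.13), with 0 past the threshold. Mean levels of the round spermatid list were 1.53 to 2.56 in CPA and 1.61 to 2.95 in saline pachytene spermatocytes. The part of this shift in the values of the transcripts was not tested. Gas5 was the 1 transcript of 15 whose groups did not overlap, beside 0.627% of all transcripts: the 5 CPA arrays lay at 1.23, 1.22, 1.23, 1.22 and 1.38 and the 5 saline arrays at 1.11, 0.95, 0.90, 1.03 and 1.14. Its difference was 0.23 ± 0.16 (95% interval -0.09 to 0.56), 1.17-fold, with an adjusted p of 0.764, and 0.827 when pachytene arrays were fitted alone. The pachytene SD of Gas5 was 0.07 in CPA and 0.10 in saline rats, and that of round spermatids 0.27 in CPA and 0.37 in saline rats, where the difference was -0.08 ± 0.14.

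The effect of CPA was not shown to depend on the cell type for any of the 16 transcripts (0 past a limma adjusted p of 0.05, beside 0% of 19695, and the lowest adjusted p was 0.634). At an unadjusted p under 0.05 there were 2 of 16, beside 7.65% of all. These were NR_027366, at 0.46 ± 0.19 (95% interval 0.06 to 0.86) for the round spermatid effect minus the pachytene effect, and 2810025M15Rikl, at -0.44 ± 0.21 (95% interval -0.88 to -0.004). Cox6c-ps1 stood at -0.41 ± 0.20, Gas5 at -0.31 ± 0.21 and RGD1562890 at -0.25 ± 0.28. Gapdh-ps1, C7h12orf54 and Igh-6l1 were on the positive side at 0.50 ± 0.35, 0.34 ± 0.30 and 0.10 ± 0.23. Intervals lay within 2-fold for 11 of 16. The interaction was above 0 for 12 of 12 round spermatid markers (median 0.51) and below 0 for 9 of 11 pachytene markers (median -0.18), with 0 past the threshold, and the part of this in the values above was not tested.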

How the data were processed

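RNA of 22 germ cell samples, numbered by rat in the labels, was hybridised to 1-colour Agilent rat arrays. The deposited intensity values are processed signals, background-subtracted and detrended within each array by Agilent Feature Extraction 10.7.3.1 per the file headers, while the submitters' processing notes name version 11.5.1.1. The authors' deposited value table holds log2 values. Against scanner values centred on each probe's median within a cell type, over the brighter probes, r was 0.958 to 0.994 for the matching array and at most 0.579 for the rest, which settles direction. Column medians were -0.0098 to 0.0070, and its normalization and centring are not given in the sources used here. The treatment comparisons were repeated on it.

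Outlier and control spots were left out, log2 signals of a probe's spots were averaged, and each array's log2 75th percentile was subtracted. A probe counted as well above background where over 0.5 of its spots carried that flag. Transcripts were tested where this held on all but at most 1 array of a compared group. Group means of all 22 arrays were fitted with limma 3.58.1 (lmFit, eBayes; R 4.3.3), with Benjamini-Hochberg adjustment over all tested transcripts and a threshold of 0.05. The ± after a difference is limma's SE, and after a mean it is the SD. The fit was tested on simulated data. Folds against a group with no array well above background used, per array, the higher of the lowest signal well above background and the probe's own. The number of arrays limits the precision.

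Alternatives changed the background correction, normalization, filter, probe, slide, rat number or replicates. The normexp correction used the median signal, since the scanner files used here hold no mean signal. It added an offset of 50 intensity units, which shrinks log2 differences between dim values. Fits of 1 cell type alone, and of slides 1 and 2 alone with slide as a term, were chosen after seeing the data. Equal rat numbers are not stated to pair the samples, and a check that could not settle this is described in the closing section.

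Members, gene lists and tests were chosen with earlier results of these data known. Named transcripts were those past the threshold between cell types in saline rats, and, for treatment and interaction, the 4 smallest unadjusted p in each direction. RT1-CE6, the transcripts too dim to test, and the neighbours were named after their values were seen. Symbols, neighbours and promoters came from RefSeq tables for GRCr8, and array coordinates, on rn4, were not used.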

Additional observations from a re-analysis of the deposited data

Results flagged for a closer look

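In 6 of the 68 groups of 5 or 6 arrays examined, a single array stood apart from its group by Dixon's criterion, set at a chance of about 1 in 20. The groups examined were not all groups of the members. The saline pachytene group of Aoc2-ps1 was well above background on its outlying array alone. The count is therefore not compared with that chance. AA926063 was low on CPA round spermatid replicate 27 at -5.38. Gas5 was high on CPA pachytene replicate 29 at 1.38. Gapdh-ps1 was low at -3.14 on the CPA pachytene array of slide 4. NR_027235 was high on saline pachytene replicate 28 at -1.02. Tnxa-ps1 was high on CPA round spermatid replicate 16 at -5.23, where the probe was not well above background. In that group it was so on replicate 15 alone, at -5.93. Aoc2-ps1 was high on saline pachytene replicate 26 at -2.83, while the other saline pachytene arrays lay between -8.49 and -8.16, and this probe has a single spot.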

How the results depend on the processing

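Of the transcripts that passed between cell types, 9 passed under every setting that gave them a value in CPA rats and 9 in saline rats. Among the saline ones E230034O05Rik had a value in 20 of 21 settings. Members passing numbered 13 to 15 in both treatments when single replicates were left out. Fewer passed within single slides. The highest numbers over the other settings were 15 in CPA and 17 in saline rats. The 17 came from the fit without a filter on dim probes, which takes in all 26 members in place of 16. No share of all transcripts stands beside these counts. Within slide 2 the saline difference of AA926063 reversed to -0.14, and within slide 1 the CPA difference of Terc reversed to -0.0168. These fits hold 1 pachytene array, assumed to vary like the other groups, and the cause was not tested. Without a filter on dim probes the medians over all members moved toward 0 for other named noncoding RNAs (-0.37 in CPA and -0.30 in saline rats) and pseudogenes (0.0618 in CPA and 0.107 in saline rats), and for uncharacterized transcripts were -0.0486 in CPA rats, 0.149 in saline rats and -0.128 in the interaction. This setting adds dim members by construction. For treatment, 0 members passed in round spermatids in 24 of 24 settings, in the interaction in 31 of 31, and in pachytene spermatocytes in 19 of 20. Within slide 3 alone 1 passed there, E230034O05Rik (1.61, limma adjusted p = 0.0229). Over all transcripts that slide gave 93 calls, slide 4 gave 9 (each fit has 1 array in an arm, assumed to vary like the others), and leaving out CPA pachytene replicate 29 or saline pachytene replicate 26 gave 1 and 7, against 0. The stricter filter left no value for E230034O05Rik, nor for Terc in CPA rats.

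The rat numbers were checked for pairing through the deviations of same-numbered samples from their group means, which correlated at -0.22 to 0.38. Samples with different numbers correlated at -0.44 to 0.43, and no same-numbered pair shared a slide. The check therefore cannot tell whether equal numbers mark the same animal. With rat number as a random block 14 members passed between cell types in CPA rats, 15 in saline rats, and 0 for treatment in round spermatids and for the interaction. How many of all transcripts passed with this block is not given here, so the counts do not set the members apart from the rest. No paired analysis was possible for treatment in pachytene spermatocytes because equal numbers in CPA and control rats name different animals, and the groups share 1 number. For the same reason a separate block for treatment in round spermatids, on rat numbers shared by CPA and saline rats, pairs no animals.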
